A study of Mus musculus with 16 samples.

Results

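The genes described here drive the cell cycle and DNA replication. They were 40 genes chosen by symbol: regulators of the step from G1 into S phase, the machinery that licenses and fires replication origins, enzymes of DNA synthesis, kinases and cyclins of mitosis, components of the spindle checkpoint and of the dividing chromosome, and the proliferation marker Mki67 with the topoisomerase gene Top2a. Of these, 39 were measured among 19938 genes on 16 mouse Affymetrix gene arrays, and Ccnb1 was not analysed here. Each gene was read from its probe set with exactly 1 gene symbol and, where there were several, from the one with the highest mean over all arrays. This concerned Pcna and Top2a. The other Pcna probe set gave nearly the same group means (10.14 in treated, 10.15 in control and 9.18 in primary cells), but the other Top2a probe set was low and flat (4.44, 4.40 and 4.47), so the Top2a results rest on 1 probe set.

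A dividing cell licenses its replication origins in G1 by loading the Mcm2 to Mcm7 helicase with Cdc6 and Cdt1, copies its DNA in S phase, and then makes cyclins, kinases and spindle proteins for mitosis. Most of these genes are transcribed in waves, at the G1/S border through E2F factors and in G2 and M phase through MuvB complexes and Foxm1, and are repressed in cells that have left the cycle. Dopaminergic neurons of the midbrain are born from dividing progenitors of the floor plate and, like other neurons, stop dividing as they differentiate.

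The study examined cells that its labels call midbrain dopaminergic neurons. All groups carried the genotype Pitx3GFP/+, in which GFP marks cells that use the Pitx3 locus, on a mixed C57BL/6 x 129/Ola strain background. The first group, called treated below, held 5 biological replicates of cells differentiated from induced pluripotent stem cells (iPSCs) with recombinant human WNT1, a Wnt ligand, and recombinant human DKK3, a secreted Dickkopf protein. Its control group held 5 biological replicates differentiated without them. The other arrays carried primary neurons from the ventral midbrain of embryos, 3 arrays at E14.5 and 3 at E13.5. By their labels, the 3 arrays of a stage are technical replicates, and each stage counts as 1 sample. Per the design text all cells were sorted for GFP, whereas the labels of single samples mention sorting for primary cells alone. The sources used here do not state if the iPSC-derived replicates were separate cultures or how many iPSC lines they came from, and p-values therefore reflect only the spread of these samples, which may be technical. In RNA from a cell population, fewer cells of a type and less RNA per cell cannot be told apart.

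Values are log2 levels after RMA normalization, so a difference of 1 is 2-fold. The array medians lay between 6.17 and 6.44 over genes and the lower quartiles between 4.84 and 5.11. Levels of different genes come from different probes and are compared only across arrays. The markers did not bear out the neuronal label on 8 of the 10 iPSC-derived arrays. Over 10 genes of postmitotic neurons the mean level on these 8 was 6.01 to 6.49, against 9.91 to 10.31 on primary arrays, and over 6 dopaminergic genes it was 5.55 to 5.92, against 9.74 to 10.18. The arrays numbered 5 stood apart in both groups, at 8.24 (treated) and 7.95 (control) for the neuronal and 8.29 and 7.82 for the dopaminergic genes. In both means they still lay below all primary arrays. The word neurons is therefore kept for the primary cells.

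On every array the cell cycle genes were first summarized by their mean level over the 39 genes. The treated arrays 1 to 5 had means of 7.24, 8.39, 7.56, 7.43 and 6.14. The control arrays 1 to 5 had 7.46, 7.78, 7.68, 7.40 and 6.13. Primary neurons had 5.87, 5.87 and 6.03 at E14.5 and 5.89, 5.90 and 6.05 at E13.5. All iPSC-derived arrays thus lay above all primary arrays, treated array 2 was the highest of all, and both arrays numbered 5 lay close to the primary range, 0.21 (treated) and 0.19 (control) above the primary mean. The heat map of single genes shows the same arrays standing apart in nearly every row.

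**Figure D1:**
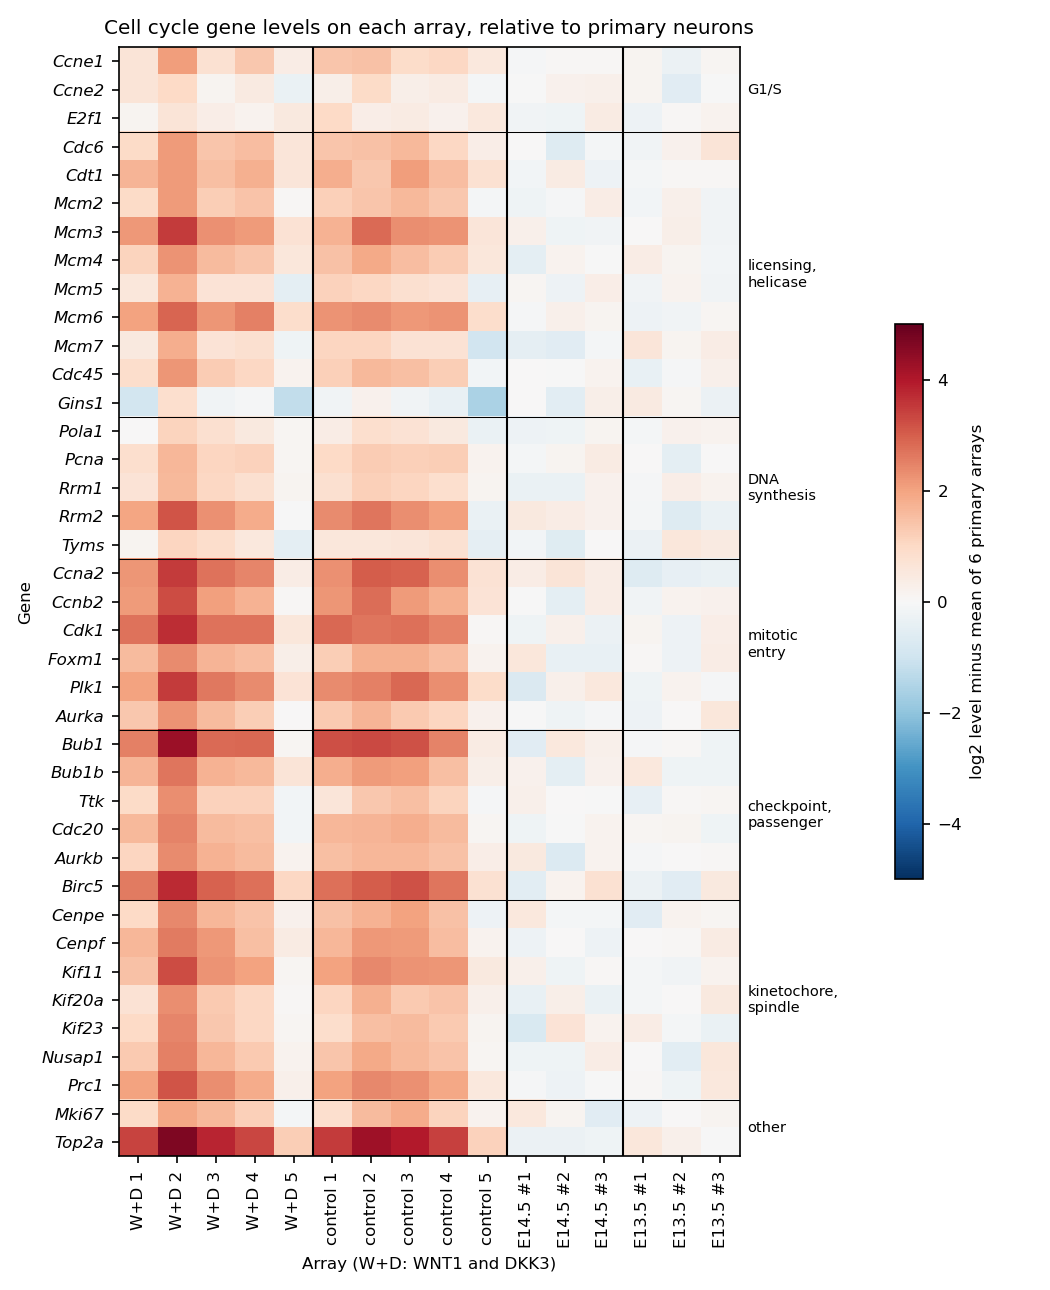
Log2 level of each of the 39 measured cell cycle genes (rows, ordered by role) on each of the 16 arrays (columns; W+D is WNT1 and DKK3, # marks technical arrays), minus the gene's mean over the 6 primary arrays. Red is above and blue below the primary mean: columns W+D 5 and control 5 are pale, W+D 2 is the darkest, and Gins1 is the row that is blue on most iPSC-derived arrays.

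Single genes were next set against the whole range of the 6 primary arrays. A member counted as above where its level on an iPSC-derived array exceeded all 6 primary arrays. This held for 34 of 39 members on treated array 1, where 26.1% of all 19938 genes did so, for 39 on array 2 (28.7% of all genes), for 36 on array 3 (26.8%) and for 36 on array 4 (29.1%). On treated array 5 it held for 12 of 39 members, or 30.8%, against 24.5% of all genes. Among control arrays it held for 38 members on array 1 (28.2% of all genes), 36 on array 2 (26.6%), 37 on array 3 (26.5%) and 37 on array 4 (27.4%). On control array 5 it held again for 12 members, against 22.8% of all genes. On the arrays numbered 5 the members' share was therefore near that of all genes, and on the other 8 arrays it was 87.2% or more.

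On all 8 arrays not numbered 5, 33 of 39 members lay above all primary arrays, as did 17.3% of all genes. The 6 that did not were Ccne2, E2f1, Mcm7, Gins1, Pola1 and Tyms, from the G1/S and replication roles. On both arrays numbered 5, 8 of 39 members lay above all primary arrays, a share near the 19.6% of all genes. They were Ccne1, E2f1, Cdt1, Mcm3, Mcm4, Mcm6, Plk1 and Top2a. All of these except E2f1 did so on all 10 iPSC-derived arrays, which makes 7 members, against 14.1% of all genes. A further 4 members were above only on treated array 5 (Cdk1, Bub1b, Birc5 and Cenpf) and 4 only on control array 5 (Ccna2, Ccnb2, Kif11 and Prc1). These sets were named after their values were seen.

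The members varied together among the iPSC-derived arrays. Both arrays numbered 5 were below the other 8 iPSC-derived arrays in 37 of 39 members, all but E2f1 and Pola1, as in 11.7% of all genes. Treated array 2 was above the other 9 in 38 of 39 members, all but E2f1, as in 13.3% of all genes. These 2 patterns were noticed in the data and are descriptions. The median SD over the 10 iPSC-derived arrays was 0.69 for the members and 0.20 for all genes, and 29 of 39 members exceeded the 95th percentile of all genes (0.54). Without the arrays numbered 5 the median SD was 0.39 for the members and 0.18 for all genes. The genes with the widest spread were Bub1, a kinase gene of the spindle checkpoint (SD 1.30), Top2a (1.17), Rrm2 (1.12) and Cdk1 (1.12), and E2f1 had the smallest (SD 0.25).

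Markers of other cell types were read on the same arrays. Over 8 pluripotency genes, among them Nanog and Pou5f1, the mean level was 7.41, 8.63, 7.65, 7.45 and 5.51 on treated arrays 1 to 5 and 7.77, 8.04, 7.75, 7.28 and 5.65 on control arrays 1 to 5, against 5.34 to 6.02 on primary arrays. Among iPSC-derived arrays it was lowest on those numbered 5, which fell inside the primary range, and highest on treated array 2, the arrays that also stood apart in the cell cycle genes. Of these 8 genes, 0 passed as higher in either comparison with primary neurons with all arrays, and 7 in treated and 6 in control cells did so without the arrays numbered 5. Those arrays are low in these same genes, so leaving them out favours the calls and is no independent support. Nanog was at 8.65, 10.14, 8.74, 8.42 and 6.40 on treated arrays 1 to 5, at 9.05, 9.32, 9.05, 8.52 and 6.42 on control arrays 1 to 5, and between 5.82 and 6.81 on primary arrays. Markers of neural progenitors had means of 8.26 to 8.78 on iPSC-derived arrays, against 7.59 to 7.85 on primary arrays. Of these 8 markers, 5 passed as higher and 1 as lower in each comparison. The lower one differed by -1.87 in treated and -1.90 in control cells. Mesenchyme genes (8.86 to 9.96, against 5.51 to 5.83) and epithelial genes (8.43 to 10.52, against 5.77 to 5.95) were high on all iPSC-derived arrays, the arrays numbered 5 included, and 8 of 8 and 6 of 6 passed as higher in each comparison. The epithelial genes were nevertheless lowest among iPSC-derived arrays on those numbered 5, at 8.43 (treated) and 8.71 (control), against 9.15 to 10.52 on the other 8. The mesenchyme genes were highest on the arrays numbered 5, at 9.86 (treated) and 9.96 (control), against 8.86 to 9.80 on the other 8. Of the 10 neuronal and 6 dopaminergic genes, 10 and 6 passed as lower in each comparison. Of all genes, 19.9% passed as higher and 21.3% as lower in treated cells, and 19.3% and 22.5% in control cells. Without the arrays numbered 5, 22.9% of all genes passed as higher in treated and 22.5% in control cells. Muscle genes lay at 6.45 to 6.76 on the 8 arrays not numbered 5, at 7.65 on treated and 6.83 on control array 5, which were the highest, and at 5.52 to 5.95 on primary arrays. Microglia genes had means of 5.19 to 5.76 on iPSC-derived and 5.13 to 5.78 on primary arrays, but single genes moved in both directions. Of 6, 1 passed as higher (by 2.06 in treated and 2.21 in control cells) and 2 as lower in each comparison. The part of these cell types in the levels of the cell cycle genes was not tested.

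**Figure D2:**
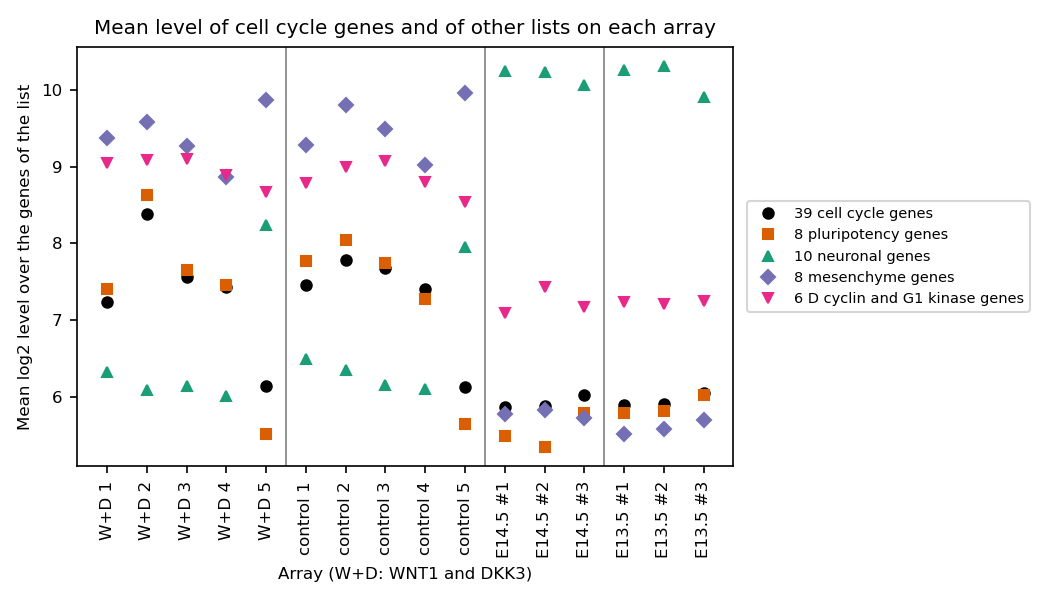
Mean log2 level over the genes of 5 lists (vertical axis) on each of the 16 arrays (horizontal axis; W+D is WNT1 and DKK3, # marks technical arrays); vertical lines part the 4 groups, and heights of different lists are not comparable. The cell cycle and pluripotency genes drop on W+D 5 and control 5, where the neuronal genes lie at 8.24 and 7.95, while the mesenchyme genes and the D cyclin and G1 kinase genes stay above their primary levels.

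The members were then compared between iPSC-derived cells and primary neurons. Every cell cycle gene that passed the test was higher in iPSC-derived cells: 20 of 39 passed the test as higher and 0 as lower in treated cells, where 19.9% of all genes were higher and 21.3% lower, and 19 of 39 were higher and 0 lower in control cells, where 19.3% of all genes were higher and 22.5% lower. The median difference over the members was 1.38 in treated and 1.29 in control cells, against -0.09 and -0.11 over all genes. It was positive for 38 of 39 members in each comparison, all but Gins1, and for 42.8% of all genes in treated and 41.3% in control cells. The test was limma on 12 samples with 1 averaged sample per stage as the primary group, and an adjusted p under 0.05 counts as passed. Both comparisons use the same primary samples and are not independent, and the primary group gives 2 samples of different age.

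How many members passed differed with and without the arrays numbered 5. The median SE was 0.50 for the members and 0.16 for all genes with every array, and 0.29 and 0.15 without both. Without both, 35 of 39 members were higher in treated cells (22.9% of all genes) and 35 in control cells (22.5% of all genes), with medians of 1.62 and 1.58, and all members called with every array were among them. Those that still did not pass were Ccne2, E2f1, Gins1 and Pola1. These arrays are low in the very genes tested, so leaving them out favours the calls and is no independent support. The same limit applies to every comparison with primary neurons below that leaves them out. The 20 members higher in treated cells became 10 without treated array 3 and 32 without treated array 5. The 19 higher in control cells became 9, 6, 7 and 11 without control arrays 1, 2, 3 and 4, 12 without treated array 3, and 31 without control array 5. With 1 primary stage alone fewer members passed in both comparisons. In these fits the primary group is 1 sample, assumed to vary like the iPSC-derived groups, from which all of the spread is taken. Shares of all genes that passed with 1 array left out or with 1 stage are not given here. The changes in these counts therefore have no background and may not be particular to the cell cycle genes.

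**Figure D3:**
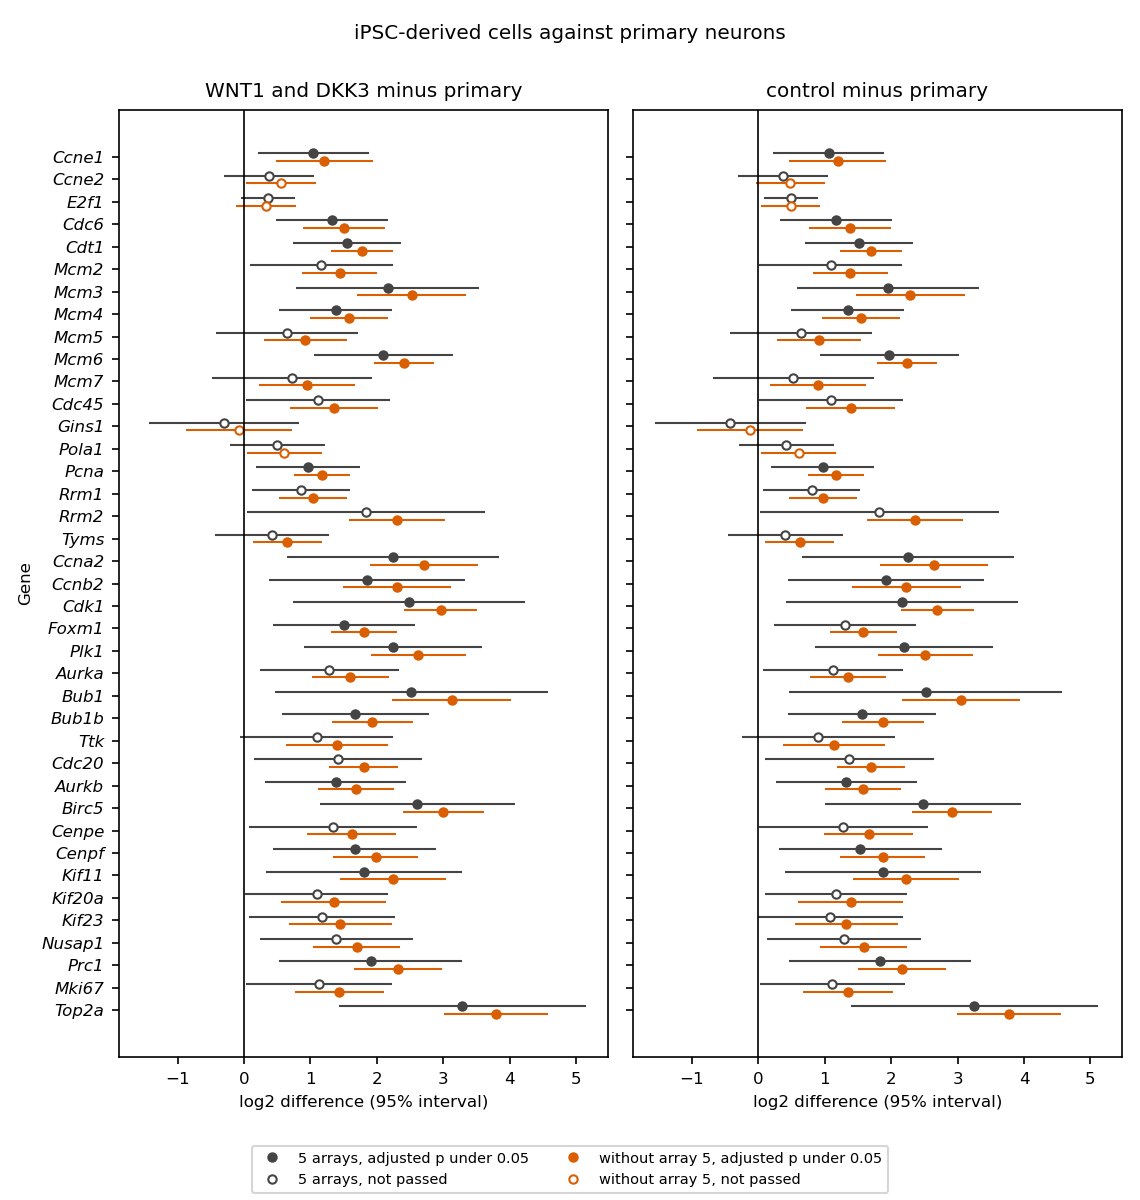
Log2 difference of each cell cycle gene from primary neurons (horizontal axis) in WNT1 and DKK3 cells (left) and control cells (right), with 95% intervals from limma; grey uses 5 arrays, orange leaves out the array numbered 5, and filled points passed an adjusted p of 0.05. All points but those of Gins1 lie right of 0, Top2a lies farthest right, and the orange intervals are narrower for 38 genes and wider for E2f1.

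Among the 3 regulators of the G1/S step, 1 was higher in both comparisons (33.3%, against 19.9% of all genes in treated and 19.3% in control cells). Ccne1, which encodes cyclin E1, the partner of Cdk2 at the start of S phase, was at 6.87, 8.31, 7.0, 7.59 and 6.59 on treated arrays 1 to 5 and at 7.60, 7.68, 7.16, 7.26 and 6.75 on control arrays 1 to 5. Primary neurons had 6.16, 6.29 and 6.30 at E14.5 and 6.35, 5.96 and 6.33 at E13.5, so the groups did not overlap, although treated array 5 lay close to the primary arrays. The difference from primary neurons was 1.04 (SE 0.38, adjusted p = 0.0464) in treated and 1.06 (SE 0.38, adjusted p = 0.0423) in control cells. Ccne2, the gene of the related cyclin E2, differed by 0.38 and 0.37 and did not pass (adjusted p = 0.342 and 0.352). E2f1, a transcription factor that activates S phase genes, was at 5.83, 6.31, 6.02, 5.87 and 6.16 on treated and 6.66, 6.01, 6.08, 5.91 and 6.19 on control arrays 1 to 5, against 5.50, 5.47 and 6.09 at E14.5 and 5.42, 5.75 and 5.85 at E13.5. The highest primary array, at 6.09, lay above several iPSC-derived arrays, and the differences of 0.36 (adjusted p = 0.14) in treated and 0.49 (0.0514) in control cells did not pass.

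Of the 10 genes of origin licensing and the replicative helicase, 5 were higher in each comparison, namely Cdc6, Cdt1, Mcm3, Mcm4 and Mcm6. These are 50%, against 19.9% of all genes in treated and 19.3% in control cells. Mcm6, a subunit of the helicase, was at 8.48, 9.38, 8.70, 8.995 and 7.34 on treated arrays 1 to 5 and at 8.72, 8.82, 8.63, 8.72 and 7.38 on control arrays 1 to 5. In primary neurons it was at 6.42, 6.74 and 6.60 at E14.5 and 6.23, 6.30 and 6.59 at E13.5, and even the arrays numbered 5 lay above all of these. The difference was 2.10 (SE 0.48, adjusted p = 0.00396) in treated and 1.97 (SE 0.48, adjusted p = 0.00579) in control cells. Mcm2, another subunit, was at 7.44, 8.61, 7.70, 7.88 and 6.53 on treated and 7.66, 7.87, 8.08, 7.82 and 6.37 on control arrays 1 to 5, against 6.25, 6.42 and 6.82 at E14.5 and 6.33, 6.70 and 6.28 at E13.5. Both arrays numbered 5 fell inside the primary range, and the differences of 1.16 (adjusted p = 0.0774) and 1.09 (0.0922) did not pass. Leaving out those arrays, which favours the call, gave Mcm2 differences of 1.44 (adjusted p = 0.000899) and 1.39 (0.00114).

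Cdc6 and Cdt1, which load the helicase, were higher by 1.32 and 1.55 in treated cells (adjusted p = 0.0162 and 0.00567) and by 1.17 and 1.51 in control cells (0.029 and 0.0064). Cdc6 lay at 4.485 to 5.78 on primary arrays, in part below the lower quartiles of the arrays, so the size of its difference is uncertain. Gins1, a subunit of the GINS complex that activates the helicase, had the only negative difference. It was at 5.25, 7.02, 5.99, 6.13 and 4.95 on treated and 5.995, 6.40, 5.999, 5.81 and 4.59 on control arrays 1 to 5, against 6.20, 5.63 and 6.47 at E14.5 and 6.62, 6.26 and 5.87 at E13.5. Only treated array 2 lay above all primary arrays, and the differences of -0.31 (adjusted p = 0.651) in treated and -0.42 (0.528) in control cells did not pass.

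Of the 5 genes of DNA synthesis and nucleotide supply, 1 passed with all arrays, or 20%. This share was near that of all genes, 19.9% in treated and 19.3% in control cells. The gene that passed was Pcna, the sliding clamp of the DNA polymerases. It was at 10.09, 10.87, 10.29, 10.37 and 9.34 on treated and 10.24, 10.51, 10.41, 10.44 and 9.40 on control arrays 1 to 5, against 9.12, 9.36 and 9.64 at E14.5 and 9.26, 8.74 and 9.26 at E13.5. The 8 arrays not numbered 5 were all above the primary arrays and those numbered 5 lay among them. The difference was 0.96 (SE 0.36, adjusted p = 0.0482) in treated and 0.97 (SE 0.36, adjusted p = 0.0463) in control cells. Rrm2, the regulated subunit of ribonucleotide reductase, had a larger difference and a larger error. It was at 8.07, 9.25, 8.38, 7.98 and 6.09 on treated and 8.50, 8.80, 8.45, 8.17 and 5.79 on control arrays 1 to 5, against 6.60, 6.47 and 6.32 at E14.5 and 6.03, 5.48 and 5.80 at E13.5. Both arrays numbered 5 lay within the primary range and the other 8 above it. Its differences of 1.84 (SE 0.82, adjusted p = 0.0915) and 1.82 (SE 0.82, adjusted p = 0.0916) did not pass. Leaving out the arrays numbered 5, which favours the call, gave Rrm2 differences of 2.30 (adjusted p = 0.000175) and 2.36 (0.000146). Tyms, the thymidylate synthase gene, had the smallest difference of this role, at 0.42 (adjusted p = 0.404) and 0.41 (0.414), and its primary arrays spanned 6.49 to 7.69.

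The median difference of the 6 measured genes of mitotic entry was 2.04 in treated and 2.04 in control cells. It was 1.54 and 1.47 for the checkpoint and passenger genes, 1.39 and 1.29 for the kinetochore, spindle and cytokinesis genes, 1.24 and 1.13 for the licensing and helicase genes and 0.86 and 0.80 for the DNA synthesis genes, and roles were not tested against each other. Of the 6 measured genes of mitotic entry, 5 were higher in treated cells and 4 in control cells, since Foxm1, a transcription factor of G2 and M phase genes, was at 1.498 (adjusted p = 0.0283) in treated and at 1.30 (0.0501) in control cells. This does not show that the groups differ in Foxm1. The shares of 83.3% in treated and 66.7% in control cells stood against 19.9% and 19.3% of all genes. Ccna2, the cyclin A2 gene, was at 8.48, 9.77, 9.003, 8.73 and 6.67 on treated and 8.55, 9.30, 9.25, 8.61 and 7.002 on control arrays 1 to 5, against 6.67, 6.94 and 6.64 at E14.5 and 5.62, 5.87 and 5.95 at E13.5. Only treated array 5 reached into the primary range, and the difference was 2.25 (SE 0.73, adjusted p = 0.0278) in treated and 2.26 (SE 0.73, adjusted p = 0.0266) in control cells. Cdk1, the kinase that drives entry into mitosis, was at 8.46, 9.43, 8.47, 8.45 and 6.30 on treated and 8.61, 8.42, 8.51, 8.23 and 5.79 on control arrays 1 to 5, against 5.54, 5.99 and 5.45 at E14.5 and 5.88, 5.51 and 6.10 at E13.5. Control array 5 lay within the primary range. The difference was 2.48 (SE 0.80, adjusted p = 0.0271) in treated and 2.17 (SE 0.80, adjusted p = 0.047) in control cells. Plk1, a mitotic kinase, was higher by 2.24 in treated and 2.20 in control cells. Aurka, the kinase of the spindle poles, did not pass in either comparison (1.28, adjusted p = 0.0501, and 1.13, adjusted p = 0.0779).

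Of the 6 genes of the spindle checkpoint and the chromosomal passenger complex, 4 were higher in each comparison, namely Bub1, Bub1b, Aurkb and Birc5. These are 66.7%, against 19.9% of all genes in treated and 19.3% in control cells. Bub1 was at 6.85, 8.59, 7.18, 7.18 and 4.41 on treated and 7.55, 7.62, 7.52, 6.81 and 4.72 on control arrays 1 to 5, against 3.76, 4.83 and 4.58 at E14.5 and 4.28, 4.37 and 4.12 at E13.5. On the 8 arrays not numbered 5 it was at 6.81 or more, against at most 4.83 on primary arrays, and on both arrays numbered 5 it lay among the primary arrays, below the lower quartile of the arrays. The difference was 2.52 (SE 0.94, adjusted p = 0.0498) in treated and 2.52 (SE 0.94, adjusted p = 0.0488) in control cells. No detection calls were used, so at such low primary levels the size of the Bub1 difference is uncertain. The same applies to other members that were low on primary arrays, such as Mcm3 (4.53 to 5.05). Leaving out the arrays numbered 5, which favours the call, gave Bub1 differences of 3.12 (adjusted p = 8.4e-05) and 3.05 (1.0e-04). Birc5, the survivin gene of the passenger complex, was higher by 2.61 and 2.48. Ttk, the Mps1 kinase gene of the checkpoint, had the smallest difference of this role, at 1.09 (adjusted p = 0.116) and 0.90 (0.184).

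Of the 7 genes of the kinetochore, spindle motors and cytokinesis, 3 were higher in each comparison, namely Cenpf, Kif11 and Prc1. These are 42.9%, against 19.9% of all genes in treated and 19.3% in control cells. Kif11, a motor that separates the spindle poles, was at 6.69, 8.48, 7.46, 7.22 and 5.31 on treated and 7.24, 7.62, 7.48, 7.44 and 5.73 on control arrays 1 to 5, against 5.47, 5.01 and 5.28 at E14.5 and 5.12, 5.04 and 5.39 at E13.5. Treated array 5 lay within the primary range, and the difference was 1.81 (SE 0.68, adjusted p = 0.0499) in treated and 1.88 (SE 0.68, adjusted p = 0.0423) in control cells. Kif23, a motor of cytokinesis, had the smallest difference of this role in control cells, at 1.09 (adjusted p = 0.0996), and was at 1.18 (0.0789) in treated cells.

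Top2a, the topoisomerase that untangles replicated chromosomes, had the largest difference of all members in both comparisons. It was at 8.90, 10.17, 9.32, 8.83 and 6.74 on treated and 8.99, 9.73, 9.48, 8.94 and 6.67 on control arrays 1 to 5, against 5.21, 5.23 and 5.30 at E14.5 and 6.06, 5.75 and 5.50 at E13.5. No iPSC-derived array overlapped the primary arrays. The difference was 3.28 (SE 0.85, adjusted p = 0.0086) in treated and 3.25 (SE 0.85, adjusted p = 0.00899) in control cells, and 3.80 and 3.78 without the arrays numbered 5. Mki67, the gene of the Ki-67 antigen of dividing cells, was at 6.67, 7.67, 7.35, 6.92 and 5.61 on treated and 6.55, 7.31, 7.58, 6.84 and 5.89 on control arrays 1 to 5, against 6.24, 5.83 and 5.17 at E14.5 and 5.45, 5.74 and 5.87 at E13.5. Both arrays numbered 5 lay within the primary range and the other 8 above it. Its differences of 1.13 (adjusted p = 0.0901) and 1.12 (0.0909) did not pass with all arrays. Leaving out the arrays numbered 5, which favours the call, gave Mki67 differences of 1.43 (adjusted p = 0.00281) and 1.35 (0.00405).

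Several of these calls lay near the threshold. Among 19 alternatives, which left out arrays, used 1 stage as the primary group or changed the scaling or the model, the call was lost for Bub1 in 12 of 19 in treated and 11 in control cells, Kif11 in 12 of 19 in treated and 9 in control cells, Pcna in 11 of 19 in treated and 10 in control cells, Ccne1 in 9 of 19 in treated and 8 in control cells, Cdk1 in 2 of 19 in treated and 10 in control cells and Ccna2 in 3 of 19 in treated and 4 in control cells. Leaving out 1 of treated arrays 1, 3 and 4 or of control arrays 1 to 4 was enough for Bub1, Kif11 and Pcna in both comparisons. With 1 stage, a single sample without a spread of its own, as the primary group, Top2a lost its calls against E13.5 alone (adjusted p = 0.0782 in treated and 0.0797 in control cells), and Mcm6 lost its call in control cells against E14.5 alone (0.0572). All of these differences stayed positive.

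**Figure D4:**
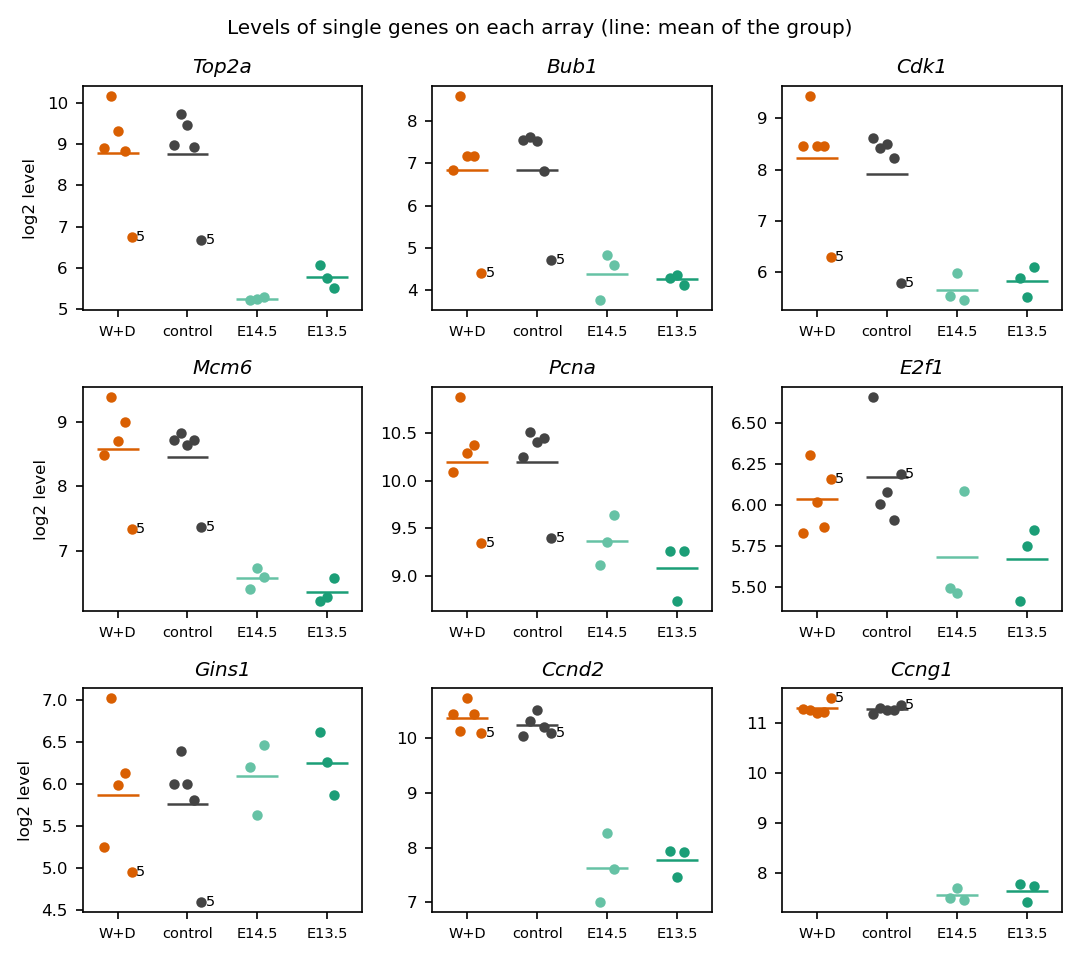
Log2 level (vertical axis, own scale for each gene) of 9 genes on each array by group; points are arrays, lines group means, the number 5 marks the arrays numbered 5, W+D is WNT1 and DKK3, and E14.5 and E13.5 points are technical arrays. The arrays numbered 5 fall toward the primary arrays in Top2a, Bub1, Cdk1, Mcm6 and Pcna, and stay with the other iPSC-derived arrays in E2f1, Ccnd2 and Ccng1.

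The promoters of 4 members are shown. Top2a and Mcm6 had the largest differences from primary neurons in control cells among mitotic and replication members with a window. Bub1 had the widest spread over the iPSC-derived arrays. Cdk1 was picked because its window holds all 3 motifs described below, so that it holds them is no result. Windows run from 250 bases before to 50 bases after the start site and come from RefSeq (GRCm38.p6), in lower case, 5′ to 3′ on the strand of the gene, which is the minus strand for all 4. Capitals mark 3 motifs on either strand: the core of the cell cycle homology region (CHR; TTTGAA or its variant TTCGAA), the CCAAT box (CCAAT), and the E2F core (TTCCCGC, its variants TTGGCGC and also TTCGCGC, and lastly TTGCCGC). Motifs may overlap, and TTCGAA reads the same on both strands and was counted once. The windows are chr11:99024140-99024439 for Top2a, chr2:127831810-127832109 for Bub1, chr10:69352863-69353162 for Cdk1 and chr1:128359656-128359955 for Mcm6.
Top2a: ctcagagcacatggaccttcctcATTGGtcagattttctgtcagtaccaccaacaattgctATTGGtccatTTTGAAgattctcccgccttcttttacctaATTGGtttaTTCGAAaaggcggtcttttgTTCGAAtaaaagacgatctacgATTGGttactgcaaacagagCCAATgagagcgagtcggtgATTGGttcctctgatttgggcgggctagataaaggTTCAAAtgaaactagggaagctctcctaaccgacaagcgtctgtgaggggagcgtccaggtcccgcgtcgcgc
Bub1: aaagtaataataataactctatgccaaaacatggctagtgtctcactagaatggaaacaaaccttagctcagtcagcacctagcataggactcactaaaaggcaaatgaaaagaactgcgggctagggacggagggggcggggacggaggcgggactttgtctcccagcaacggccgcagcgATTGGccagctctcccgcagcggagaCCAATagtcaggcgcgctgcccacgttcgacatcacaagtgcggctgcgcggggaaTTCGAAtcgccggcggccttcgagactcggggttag
Cdk1: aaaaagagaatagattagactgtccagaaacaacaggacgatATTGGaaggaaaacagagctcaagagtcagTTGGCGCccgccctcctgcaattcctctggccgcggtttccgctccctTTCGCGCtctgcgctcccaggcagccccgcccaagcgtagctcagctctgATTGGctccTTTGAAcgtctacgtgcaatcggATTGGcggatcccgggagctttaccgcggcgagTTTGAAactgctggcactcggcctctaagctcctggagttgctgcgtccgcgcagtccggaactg
Mcm6: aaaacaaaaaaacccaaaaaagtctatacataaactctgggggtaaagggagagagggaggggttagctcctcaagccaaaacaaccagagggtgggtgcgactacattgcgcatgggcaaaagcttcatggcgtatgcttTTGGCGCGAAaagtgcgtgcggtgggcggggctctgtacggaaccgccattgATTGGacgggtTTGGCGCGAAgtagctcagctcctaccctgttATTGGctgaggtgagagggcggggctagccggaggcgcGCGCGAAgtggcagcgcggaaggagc

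The Top2a window held 4 CHR cores, at -179, -140, -120 and -23 from the start site, and 6 CCAAT boxes. The Bub1 window held 1 CHR core at 15 and CCAAT boxes at -68 and -42. The Cdk1 window held CHR cores at -71 and -15, 3 CCAAT boxes and E2F cores at -178 and -130. The Mcm6 window held no CHR core, 2 CCAAT boxes and 5 E2F cores, of which those at -109 and -106 and those at -46 and -43 overlap on opposite strands.

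A window was given for 32 of the 39 members, and for 2 of them more than 1, of which the first was used. Ccne2, Mcm4, Gins1, Ccna2, Foxm1, Aurkb and Kif20a were not searched. The CHR core stood in 14 of 17 windows of the mitotic roles with Mki67 and Top2a (82.4%), in 3 of 15 windows of the G1/S and replication roles (20.0%; Mcm2, Mcm7 and Cdc45) and in 16.8% of 15614 measured genes with a window. The 3 mitotic windows without it were those of Birc5, Cenpe and Nusap1. The E2F core stood in 11.8% of mitotic windows, 60% of G1/S and replication windows and 13% of all windows. The CCAAT box stood in 88.2%, 66.7% and 38.2%. All 17 members with a CHR core also held a CCAAT box, and 5 members held none of the 3 motifs. The short motifs are letter matches and no evidence of binding.

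**Figure D5:**
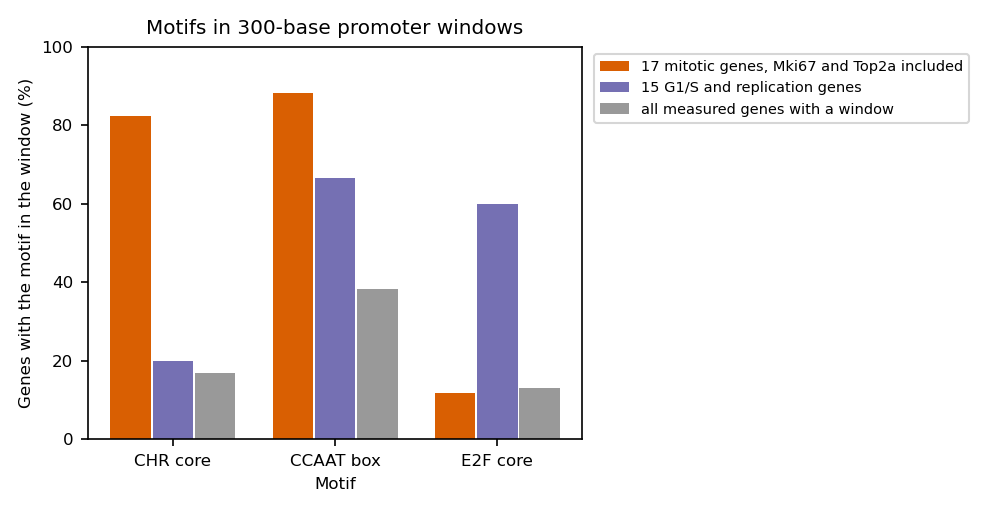
Share of 300-base promoter windows (vertical axis, percent) that hold the CHR core, the CCAAT box or the E2F core on either strand, for 17 mitotic genes (Mki67 and Top2a included), 15 G1/S and replication genes, and all 15614 measured genes with a window. The CHR bar is tallest for mitotic genes (82.4%) and the E2F bar for G1/S and replication genes (60%).

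The treated and control cells were compared next, which asks whether differentiation with WNT1 and DKK3 went with another level of cell cycle genes. No difference was detected: 0 of 39 members passed, and 0 of all 19938 genes did (0%). An unadjusted p under 0.05 was reached by 0 members and by 300 of all genes in limma, with the smallest adjusted p at 0.753. The difference was positive for 30 of 39 members, or 76.9%, and for 56.6% of all genes, with a median of 0.05 against 0.02 over all genes, and ranged from -0.13 for E2f1 to 0.31 for Cdk1.

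The error of these genes was large. The median SE was 0.40 for the members and 0.12 for all genes, and the 95% interval lay within 2-fold in either direction for 20 of 39 members but for 19363 of all 19938 genes. Cdk1 was at 8.22 ± 1.15 in treated and 7.91 ± 1.19 in control cells (SD, n = 5 each), a difference of 0.31 with a 95% interval from -1.09 to 1.72. Top2a was at 8.79 ± 1.26 in treated and 8.76 ± 1.22 in control cells, a difference of 0.03 (-1.45 to 1.51). Mki67 was at 6.84 ± 0.79 and 6.83 ± 0.66, a difference of 0.01 (-0.87 to 0.89). Changes of over 2-fold in Cdk1 and Top2a therefore lie inside the intervals. The interval of Mki67 lay within 2-fold, as did those of the next genes. Mcm2 differed by 0.07 (-0.79 to 0.93), Mcm6 by 0.13 (-0.71 to 0.96) and Pcna by -0.0072 (-0.63 to 0.61). The members with the smallest unadjusted p were E2f1 at -0.13 (-0.46 to 0.19), Cdc6 at 0.15 (-0.51 to 0.81) and Foxm1 at 0.20 (-0.66 to 1.05, which passes 2-fold).

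Without both arrays numbered 5, the intervals narrowed and 0 members passed. Cdk1 then differed by 0.26 (-0.22 to 0.74), Top2a by 0.02 (-0.64 to 0.68), Mki67 by 0.08 (-0.51 to 0.67) and Mcm6 by 0.17 (-0.22 to 0.55), all within 2-fold. The signs of several differences turned when 1 array was left out. Without treated array 2, Top2a differed by -0.31, Mki67 by -0.20, Mcm2 by -0.17 and Mcm6 by -0.074. Without control array 5, they differed by -0.49, -0.23, -0.23 and -0.14, and Cdk1 by -0.22. Top2a and Mki67 also turned without treated array 3 (-0.10 and -0.12), and Mki67 without treated array 4 (-0.0087) and without control array 1 (-0.061). Cdc6 and Foxm1 turned without treated array 2 (-0.049 and -0.018) and without control array 5 (-0.053 and -0.084). Between treated and control arrays of equal number, 7, 39, 10, 22 and 17 of 39 members were higher in treated cells for numbers 1 to 5, where 45.1%, 53.2%, 49.6%, 56.9% and 57.9% of all genes were. The mean difference over the members was -0.22, 0.61, -0.12, 0.03 and 0.01. Only number 2 had all members higher in treated cells, and no label ties arrays of equal number together.

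Primary neurons were described at both stages, with 1 sample each and therefore no test. Of 39 members, 0 differed by at least 2-fold without overlap of the technical arrays, against 0.241% of all genes, or 48 genes. The median difference, E14.5 minus E13.5, was -0.01 over the members and -0.0067 over all genes, and 36 of 39 members lay within 1.5-fold. Levels at E14.5 and E13.5 did not overlap for 4 members, or 10.3%, against 9.68% of all genes, a share near the background. At 1.5-fold without overlap there were 3 members, Ccna2, Rrm2 and Mcm7, and 1.6% of all genes. These 4 genes were named after their values were seen.

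Ccna2 was at 6.67, 6.94 and 6.64 at E14.5, against 5.62, 5.87 and 5.95 at E13.5, a difference of 0.94. Rrm2 was at 6.60, 6.47 and 6.32 at E14.5, against 6.03, 5.48 and 5.80 at E13.5, a difference of 0.69. Both were higher at E14.5 on all arrays, whereas Mcm7 and Top2a were lower there. Mcm7, a helicase subunit, was at 6.36, 6.25 and 6.73 at E14.5, against 7.43, 6.97 and 7.19 at E13.5, a difference of -0.75. Top2a differed by -0.52, with means of 5.25 at E14.5 and 5.77 at E13.5. Mki67 differed by 0.06, Cdk1 by -0.17, Mcm2 by 0.06, Mcm6 by 0.21, Pcna by 0.29 and E2f1 by 0.01, each with overlapping arrays.

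The other genes of the cycle did not all follow the members. A list of D-type cyclin genes and the kinase genes Cdk2, Cdk4 and Cdk6 was mostly higher in iPSC-derived cells. In each comparison 5 of 6 passed as higher (19.9% of all genes did in treated and 19.3% in control cells). These genes had a median difference of 2.07 in treated and 1.93 in control cells. Their mean level was 9.05, 9.09, 9.09, 8.89 and 8.67 on treated arrays 1 to 5 and 8.78, 8.99, 9.07, 8.80 and 8.54 on control arrays 1 to 5, against 7.10 to 7.44 on primary arrays. The arrays numbered 5 thus had the lowest means among iPSC-derived arrays, but these means stayed above all primary arrays. Ccnd1 (8.95 treated, 8.70 control), Cdk2 (6.93, 6.55) and Cdk4 (10.168, 10.065) were lower there than on every other iPSC-derived array. That pattern held in 11.7% of all genes. Ccnd2, the cyclin D2 gene, was at 10.45, 10.13, 10.74, 10.44 and 10.11 on treated and 10.05, 10.32, 10.51, 10.21 and 10.10 on control arrays 1 to 5, against 7.001, 8.27 and 7.61 at E14.5 and 7.94, 7.47 and 7.92 at E13.5. The difference was 2.67 (SE 0.17, adjusted p = 2.5e-07) in treated and 2.54 (SE 0.17, adjusted p = 3.8e-07) in control cells. Ccnd1 was higher by 2.22 and 2.15 and Cdk2 by 2.23 and 2.01. The gene that did not pass was Cdk4 (0.07 and -0.05).

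CDK inhibitors, which brake the cycle, moved in both directions. Of 6 measured, 2 were higher and 2 lower in treated cells, and 3 were higher and 2 lower in control cells. Over all genes 19.9% were higher and 21.3% lower in treated cells, and 19.3% and 22.5% in control cells. Cdkn2b was higher by 2.51 (SE 0.26, adjusted p = 1.1e-05) in treated and 2.61 (SE 0.26, adjusted p = 8.1e-06) in control cells, and Cdkn2a by 2.20 and 2.28. Cdkn1c, which encodes p57, was lower (-0.83 and -0.75 on the log2 scale), and so was Cdkn2d (-0.45 and -0.44). Of 14 pocket proteins and E2F and DREAM factors, which turn cycle genes on and off, 2 were higher (E2f8 and Mybl2) and 1 was lower in each comparison, or 14.3% and 7.14%, both below the shares of all genes. The lower gene was Rb1, the retinoblastoma gene, at -1.11 (SE 0.12, adjusted p = 1.5e-05) in treated and -1.20 (SE 0.12, adjusted p = 7.6e-06) in control cells.

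Of 35 further replication genes, 7 were higher and 1 lower in treated cells (median 0.65) and 8 higher and 1 lower in control cells (median 0.62), shares near those of all genes for the higher ones. Rfc1, which loads the Pcna clamp, was higher by 1.57 and 1.36, Rpa1, which binds single-stranded DNA, by 1.47 and 1.48, and Gins2 by 1.16 and 1.17. Cdc7, a kinase that fires origins, was lower in both comparisons. It was at 5.66, 6.57, 5.82, 6.01 and 5.93 on treated and 6.09, 6.02, 5.76, 5.82 and 5.62 on control arrays 1 to 5, against 7.20, 6.83 and 7.08 at E14.5 and 7.19, 6.68 and 6.87 at E13.5, and no arrays overlapped. The differences were -0.98 (adjusted p = 0.00236) and -1.11 (0.000961). Without the arrays numbered 5, 17 were higher and 1 lower in control cells, and the 17 are 48.6% of the list, against 22.5% of all genes.

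Of 36 further mitotic genes, 11 were higher and 1 lower in each comparison, with medians of 1.24 in treated and 1.18 in control cells. The 11 are 30.6% of the list, against 19.9% and 19.3% of all genes. Without the arrays numbered 5, 28 were higher in control cells, or 77.8%, against 22.5% of all genes. Pttg1, the securin gene, had a large difference of 2.98 in treated and 2.94 in control cells. It was at 9.85, 9.65, 9.75, 9.67 and 10.001 on treated and 9.90, 9.85, 9.60, 9.53 and 9.85 on control arrays 1 to 5, against 8.22, 6.39 and 6.91 at E14.5 and 6.81, 6.51 and 6.02 at E13.5. It was as high on the arrays numbered 5 as on the others, in contrast to the members of the mitotic roles. Wee1, a kinase that holds Cdk1 inactive, was higher by 2.95 and 2.92, and Hmmr by 2.60 and 2.51. Fzr1, an activator of the anaphase-promoting complex in G1, was lower (-0.51 and -0.51).

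Of 8 genes of growth arrest and exit from the cycle, 5 were higher and 1 lower in treated cells and 4 higher and 1 lower in control cells, with a median of 0.94 in each. The higher ones are 62.5% and 50% of the list, against 19.9% and 19.3% of all genes. Ccng1, a target of p53, was at 11.28, 11.26, 11.19, 11.22 and 11.49 on treated and 11.17, 11.29, 11.26, 11.25 and 11.36 on control arrays 1 to 5, against 7.50, 7.69 and 7.45 at E14.5 and 7.78, 7.41 and 7.74 at E13.5. Its differences of 3.70 (SE 0.10, adjusted p = 3.7e-10) and 3.67 (SE 0.10, adjusted p = 4.3e-10) exceed those of the members. Btg2 was higher by 1.66 and 1.60 and Gadd45a by 1.37 and 1.55. Cend1, a gene of neurons that leave the cycle, was lower. It was at 6.56, 6.19, 6.29, 6.36 and 7.39 on treated and 6.75, 6.27, 6.16, 6.55 and 7.87 on control arrays 1 to 5, against 8.95, 8.91 and 9.07 at E14.5 and 8.69, 8.95 and 8.60 at E13.5, with the arrays numbered 5 nearest to the primary neurons. The differences were -2.31 (adjusted p = 0.00076) and -2.14 (0.00125). Between treated and control cells, 0 of the 105 genes of these 6 lists passed, and 0 had an unadjusted p under 0.05 in limma.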

How the data were processed

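The table deposited by the authors holds log2 values of 35556 probe sets on 16 arrays. The submitters' processing notes name RMA and Affymetrix Expression Console 1.2. Per the labels' protocols, total RNA was amplified with a whole-transcriptome kit for small amounts before biotin labelling. The build of the probe table is not given in the sources used here. Of 23410 listed probe sets, 21789 had 1 symbol, 1621 had several and were left out, and 12146 more are not listed. The tests used limma 3.58.1 (lmFit and eBayes, R 4.3.3) with Benjamini-Hochberg adjustment over 19938 genes and a threshold of 0.05, tested on simulated data. Treated against control used 10 arrays, and the comparisons with primary neurons 12 samples in 3 groups with technical arrays averaged. The stages were compared by fold and overlap, with no test. After RMA, levels are relative, so a change in total RNA per cell is not seen. Detection calls were not used here, and the number of arrays limits precision. No 2 arrays held identical values. The members, the other lists, the motifs, the alternatives and the rule for named genes (the largest and smallest difference in each role, the widest spread, the smallest p, and Mki67, Top2a, Ccnb1, Cdk1, Mcm2, Mcm6, Pcna and E2f1 throughout) were chosen with earlier results of these data known.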

Additional observations from a re-analysis of the deposited data

Results flagged for a closer look

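Control array 5 was low enough to stand apart from the other 4 control arrays in 18 of 39 members and in their mean. The measure was not applied to all genes, so the 18 members have no background share. By the cruder count given above, both arrays numbered 5 were below the other 8 iPSC-derived arrays in 11.7% of all genes. The mean over the members was 6.13 there and 7.40 on the next lowest control array. The members were Mcm2 at 6.37 (next lowest 7.66), Mcm6 at 7.38 (next lowest 8.63), Mcm7 at 5.88 (next lowest 7.53), Cdc45 at 5.97 (next lowest 7.29), Pcna at 9.40 (next lowest 10.24), Rrm2 at 5.79 (next lowest 8.17), Tyms at 6.68 (next lowest 7.66), Cdk1 at 5.79 (next lowest 8.23), Plk1 at 6.26 (next lowest 7.63), Bub1 at 4.72 (next lowest 6.81), Cdc20 at 6.19 (next lowest 7.68), Aurkb at 6.42 (next lowest 7.57), Birc5 at 6.51 (next lowest 8.45), Cenpe at 4.55 (next lowest 6.26), Kif11 at 5.73 (next lowest 7.24), Nusap1 at 5.68 (next lowest 6.96), Prc1 at 5.60 (next lowest 7.003) and Top2a at 6.67 (next lowest 8.94). Among the 5 treated arrays, neither the members (0 of 39) nor their mean stood apart by the same measure. That measure sets the gap to the nearest array against the range of the group. Treated array 5 was low as well: the mean was 6.14 there, 7.24 on the next lowest treated array and 8.39 on the highest, treated array 2. Chance flags about 1 in 20 groups of values, and these genes move together on an array, so the 19 values are not independent. The cause was not tested.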

How the results depend on the processing

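Treated against control, 0 members passed under all alternatives run. With the replicate number as a replicate block, 1 gene passed of all genes and 0 members. Deviations of equal numbers correlated at 0.045 for number 1 and at 0.44 to 0.80 for numbers 2 to 5, and not every array correlated best with its own number, so the numbers were not taken as pairs. Members higher in treated cells than in primary neurons numbered 20, and 35 without both arrays numbered 5, 3 against E13.5 alone, 4 against E14.5 alone, 33 with technical arrays as a random block, and 10 to 32 with 1 array left out. In control cells there were 19, and 35, 2, 2 and 33 under the same settings, and 6 to 31 with 1 array left out. No member was lower in any of these. The random block took the technical arrays' correlation as -0.048, so it counted the 6 arrays of 2 primary samples as nearly independent, and its counts of 33 rest on more arrays than samples. Between stages, 0 members passed 2-fold, 3 passed 1.5-fold, and 0 to 1 passed 2-fold with 1 array left out. Signs of uncalled treated minus control differences turned: for Mki67 to -0.0085 with arrays centred on their medians, and for Pcna to 0.005 without both arrays numbered 5. With 1 array left out these differences were -0.23 to 0.32 for Mki67, -0.49 to 0.54 for Top2a, -0.22 to 0.79 for Cdk1, -0.23 to 0.34 for Mcm2, -0.14 to 0.43 for Mcm6, -0.21 to 0.20 for Pcna, -0.053 to 0.33 for Cdc6 and -0.084 to 0.50 for Foxm1. Of the values of single genes under alternatives, 695 kept direction and side of the threshold, 53 came to pass, 104 no longer passed and 25 changed sign.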
